A study of Xenopus tropicalis with 40 samples.

Results

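Antisense transcripts that cross the 3 prime end of a gene start beyond the end of that gene, on the opposite strand, and run back into it. They were taken from a catalogue of transcripts assembled from embryos of the western clawed frog Xenopus tropicalis. A transcript was a member when the authors' gene models coded it as antisense to a named gene (Cufflinks class x), when it overlapped the span of that gene, and when it went past the 3 prime end but not the 5 prime end of that span. The span ran over all transcripts of the same symbol on the same scaffold that followed the annotated junctions, had a new junction chain or shared an exon otherwise. This gene is called the sense gene. Of the 159469 transcripts in the catalogue 5446 were antisense, and 1330 of these, at 462 sense genes, crossed the 3 prime end alone. Members were chosen by the positions of the assembled transcripts, so their overlaps and reaches are given as a description, with no test.

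Genes that face each other from opposite strands are called convergent. Their mRNAs then end close together, and where the last exon of one is long, or where transcription runs on past the usual end, the tails of both cover the same stretch of genome and are complementary to each other. Antisense RNAs can also be independent noncoding transcripts with a promoter of their own downstream of the gene.

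The embryos were outbred, whole embryos from 2 clutches, with 16 libraries of clutch 1 and 24 of clutch 2. The 40 libraries covered 23 stages from the 2-cell embryo to the tadpole of stages 44 and 45. Polyadenylated RNA was used, and the second cDNA strand was marked with dUTP and removed, per the labels' protocols, which can tell both strands of the genome apart. The catalogue pooled all libraries: no value belonged to a single stage or clutch, no value had replicates, and library depth is unknown. Nothing below therefore says when in development an antisense transcript was made, or how abundant it was. Each member had 2 or more exons. Among the 9652 single-exon transcripts of the catalogue 7917 carried no strand, and 2 antisense transcripts in all had 1 exon, so unspliced antisense RNA could hardly be seen here. Whether the strand of the spliced models came from the library protocol or from their splice sites was not checked.

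Members made up 24.4% of all antisense transcripts (Wilson 95% interval 23.3% to 25.6%), which were otherwise placed across the 5 prime end (1092 transcripts, 20.1%, 19.0% to 21.1%), inside the gene (2769, 50.8%, 49.5% to 52.2%) or across both ends (64, 1.18%). The remaining 173 had no sense model on their scaffold, 15 did not overlap it, and 3 belonged to genes with models on both strands. Intervals cover counting error only, and transcripts of 1 locus are not independent. For this reason the placements are set side by side and no test between them was made.

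**Figure D1:**
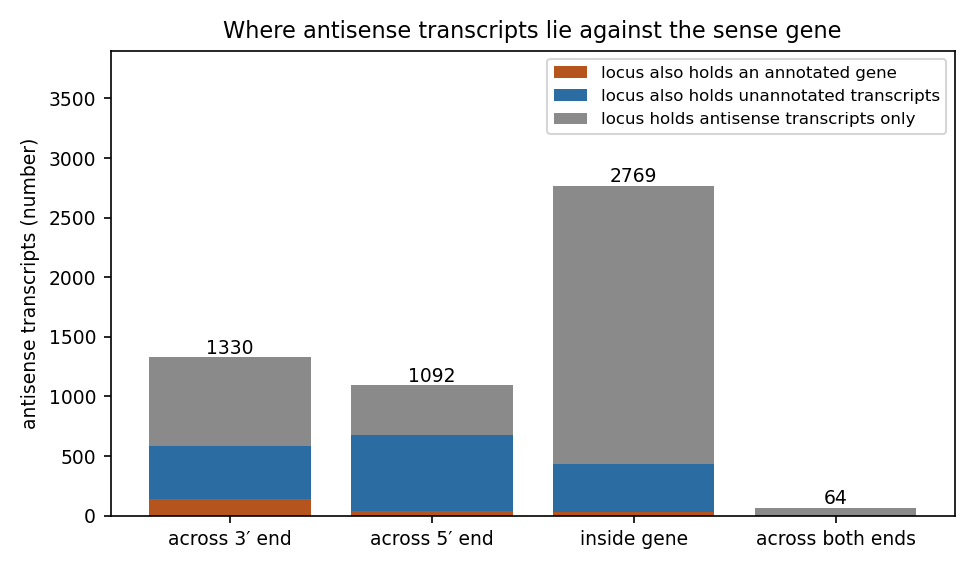
Number of antisense transcripts by their place against the sense gene, in 4 bars. Colours show what else the locus of the antisense transcript holds, and the 1330 transcripts across the 3 prime end include 142 whose locus also holds an annotated gene.

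The 462 sense genes were 5.55% of the 8329 annotated genes with a model. Another kind of antisense transcript was present at some of them: 35 also had one across the 5 prime end and 132 one inside the gene, while 306 had members alone. Members were spread unevenly. Counting a gene once per scaffold gave 464 sense genes, of which 275 had 1 member, while 26 with 10 or more members held 502 of them (37.7%). The gene with the most, MGC69473, had 73 and was picked out here after its value was seen. Values are therefore given for transcripts and also with 1 member per gene, the one with the most exons.

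Over transcripts, the median overlap with the span of the sense gene was 3049 bases (quartiles 1705 and 6166) and the median reach past its 3 prime end was 5885 bases (642 and 13174). With 1 member per gene the overlap was 2597.5 bases (1392 and 4404) and the reach 1121.5 bases (129 and 8982). The median member covered 20.2% of the span of the sense gene, and with 1 member per gene the median was 16.4%. Over 90% of the span was covered by 124 members at 25 genes, and without MGC69473 by 66 members at 24 genes.

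**Figure D2:**
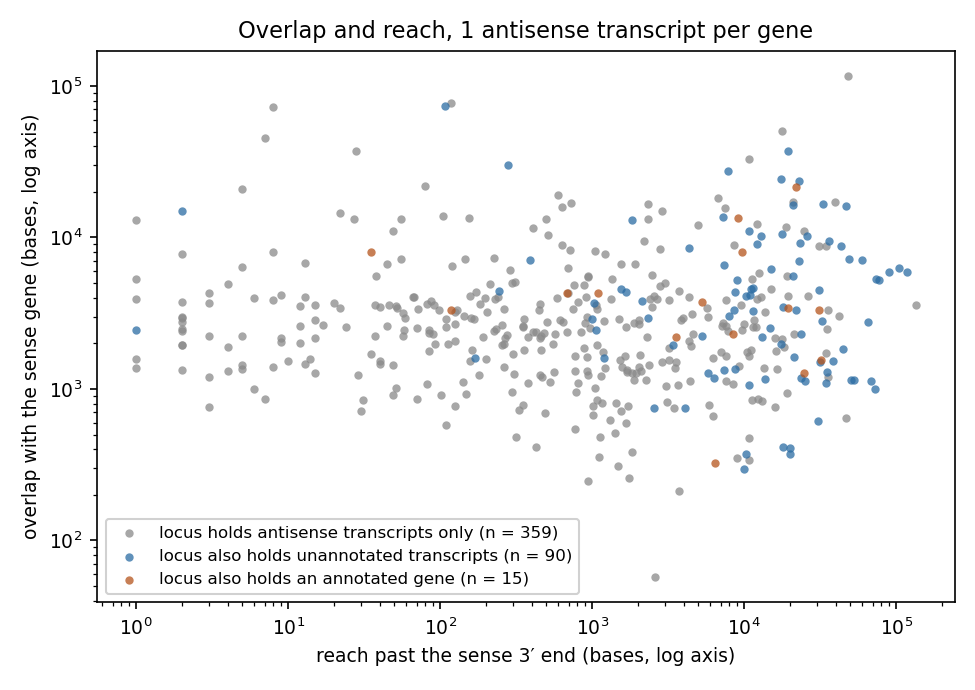
Overlap with the sense gene against reach past its 3 prime end, both in bases on log axes, for 1 antisense transcript per gene. Points of loci with unannotated transcripts have a median reach of 14219 bases and those of loci counted as having antisense transcripts alone 610 bases. Both kinds spread down to a reach of 1 base.

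Nearly all members shared some exonic bases with the sense gene, though exons made up only part of the overlap. An exon of the member overlapped a sense exon in 1297 of 1330 cases (97.5%), with a median of 1287 shared exonic bases over all members, against a median overlap of 3049 bases. In 594 members (44.7%) a single exon entered the gene. The last exon of the members, which is the exon deepest in the gene, had a median of 1239 bases. In transcripts across the 5 prime end it is the first exon that lies deepest in the gene, and its median was 536.5 bases. Most members went deeper than the last sense exon: in 174 (13.1%) the antisense RNA stopped within the last exon of the sense transcript that reached furthest.

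Members of 1 locus tended to share this tail and to differ at their far end. There were 66 pairs of a sense gene and an antisense locus with at least 5 members, 749 members in all. In 51 of them every member had the same 3 prime end. The median was 1 different 3 prime end against 4 different 5 prime ends, and no pair had more 3 prime ends than 5 prime ends. The membership rule holds the 3 prime end within the sense span and leaves the 5 prime end free beyond it. Part of this difference can follow from the rule, and how much was not tested. Ends were counted among members only, with no other set beside them.

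Some members lay at the locus of a gene that the annotation names. For 142 members at 15 sense genes (10.7% of members, 9.13% to 12.5%), the locus of the antisense transcript also held transcripts of another annotated gene on that strand. At 13 of the 15 genes, with 137 members, the furthest transcript of this neighbour started past the 3 prime end of the sense gene. MGC69473, on the minus strand of scaffold GL172680 from 2409685 to 2423378, gave 73 of them through the locus of c3orf37, and without it the share was 5.49%. With 1 member per gene it was 3.23%. The transcripts of c3orf37 itself ended at 2401484, short of MGC69473, and overlapped it by 0 bases. The neighbour's own transcripts also had no overlap at rab7a and, named after its value was seen, at nr1i2 beside sec22l2. At these genes only the antisense transcripts of the locus entered the sense gene.

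Among named pairs the longest overlap was at atp6v1d, a subunit gene of the proton-pumping V-ATPase. Both members there, of 15 and 16 exons, belonged to the locus of eif2s1, the gene of translation factor eIF2 alpha, and entered atp6v1d by 21684 bases. At man2b1, which encodes lysosomal alpha-mannosidase, 16 members of the wdr83 locus with 15 to 18 exons overlapped by 4189 to 17236 bases. In both cases the neighbour's transcripts in the catalogue spanned the whole sense gene, 27137 bases of atp6v1d and 30030 bases of man2b1, so the meeting was not end to end. In RefSeq order eif2s1 is adjacent to atp6v1d on the side away from mpp5, the gene that lies between atp6v1d and gphn. Here gphn is the next annotated gene lying wholly past the 3 prime end, and eif2s1, whose catalogue transcripts overlap atp6v1d, was passed over. At man2b1 the gene in between is trmt1, and wdr83 lies on the other side. By RefSeq order eif2s1 and wdr83 are thus on the 5 prime side of the sense genes. They counted above as starting past the 3 prime end by their catalogue transcripts alone.

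In other pairs the members overlapped the sense gene by a shorter stretch. The autophagy protease gene atg4d had 25 members, each overlapping by 2295 bases, in the locus of the cell-cycle inhibitor gene cdkn2d. They had 11 to 19 exons. At pomt1, a gene of protein O-mannosylation, 3 members of the locus of rapgef1, a Rap1 exchange factor, overlapped by 3399 bases. At ralgds 2 members of a locus with cel and rsg1 overlapped by 3747 bases, and at smcr7l 1 member of the rps19bp1 locus by 4299. At rab7a, a GTPase gene of late endosomes, 1 member of the c3orf37 locus overlapped by 3303 bases. The transcripts of rsg1 and c3orf37 themselves overlapped ralgds and rab7a by 0 bases.

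In 2 pairs the neighbour did not start past the 3 prime end. At hnrnpa1, which encodes an abundant splicing regulator, both members reached 35 bases past the gene and overlapped it by 7955 bases. Their locus held cbx5, the gene of heterochromatin protein 1 alpha, whose furthest transcript started within hnrnpa1. Transcripts of cbx5 overlapped 21300 of the 24010 bases of hnrnpa1 and ran past its 5 prime end. In RefSeq order cbx5 lies beside hnrnpa1 on its 5 prime side. At the ribosomal protein gene rps9, the 3 members of the sult2a1 locus reached 118 bases past the gene.

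Much more often the locus of the member held transcripts that match no annotated gene. This was the case for 443 members (33.3%, 30.8% to 35.9%) at 90 sense genes. The other 745 members (56.0%, 53.3% to 58.7%), at 358 genes, lay at loci with neither, called here loci with antisense transcripts alone. Whether these loci also held transcripts of further classes was not checked. With 1 member per gene, members at loci with unannotated transcripts had a median of 7.5 exons (quartiles 4 and 14), members beside an annotated neighbour 6 (3 and 11), and members at loci with antisense transcripts alone 2 (2 and 3). The median reach was 14219, 8496 and 610 bases in the same order.

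The antisense transcript with the most exons lay at ciao1, a gene of cytosolic iron-sulfur cluster assembly on the plus strand of scaffold GL172666 from 1120534 to 1126511. It had 47 exons, and 2 of them fell within ciao1. All 6 members there reached between 38601 and 38623 bases past the gene and overlapped it by 684 to 1539 bases. At galk1, the galactokinase gene, on the minus strand of scaffold GL173181 from 531261 to 562990, 29 members had up to 42 exons, and 14 exons of the largest lay within the span of galk1. No exon of these members overlapped an exon of galk1: in the sense transcript drawn in the exon maps, the exons of the largest member fell within 1 intron.

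Further genes had the same form of a chain of many exons that ends in the sense gene, and not only at loci with unannotated transcripts: of the 61 genes with a member of 10 or more exons, 40 were at such loci, 16 at loci with antisense transcripts alone and 5 beside an annotated neighbour. At acaa1, which encodes a peroxisomal thiolase, 10 members of up to 39 exons overlapped by 1503 bases. At rab14, a GTPase gene of endosomal traffic, 16 members of 34 to 39 exons overlapped by 2446 to 2473 bases. That locus counted among those with antisense transcripts alone. The mitochondrial phosphatidylserine decarboxylase gene pisd had 19 members of up to 34 exons, the ubiquitin-conjugating enzyme gene ube2k 1 member of 29, and the lipid phosphatase gene ppap2a 15 of up to 28.

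**Figure D3:**
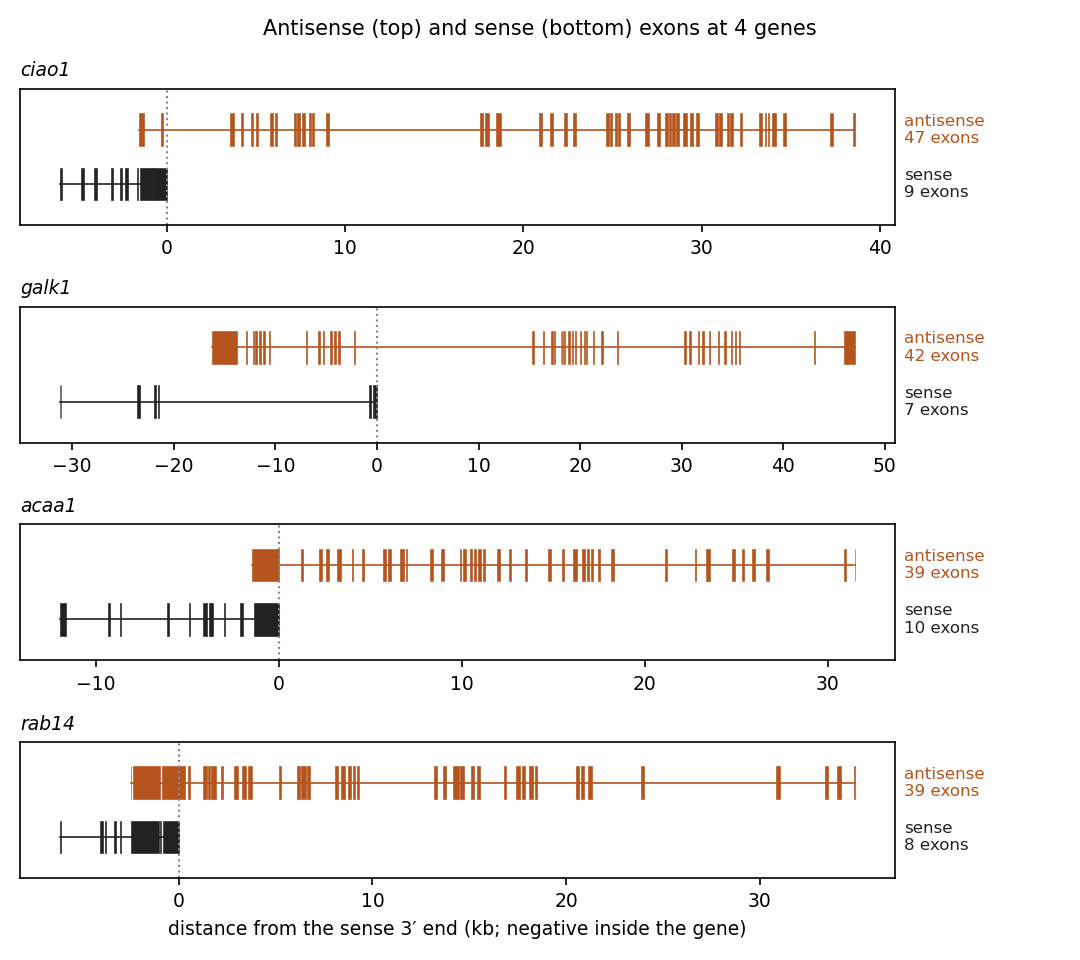
Exons of the antisense transcript with the most exons (top, orange) and of a sense transcript that reaches the 3 prime end (bottom, black) at ciao1, galk1, acaa1 and rab14, by distance from the sense 3 prime end in kb. The antisense chains of 47, 42, 39 and 39 exons lie mostly past the gene, and at galk1 their last exons fall between sense exons.

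The genes with the most members had longer chains than the median gene. At ndnl2, named nsmce3 in RefSeq and encoding a subunit of the SMC5/6 complex, on the plus strand of scaffold GL173143 from 725217 to 732029, 51 members of 5 to 14 exons overlapped by 2301 to 2725 bases. They had 2 different 3 prime ends and 35 different 5 prime ends. At suz12, a core gene of Polycomb repressive complex 2, all 27 members ended at the same base and overlapped by 3265 bases. At add1, the gene of the membrane skeleton protein adducin 1, 20 members overlapped by 10222 bases, and at ubxn6, a gene of a p97 cofactor, 20 members of 12 to 16 exons, at a locus with antisense transcripts alone, overlapped by 1198 bases.

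Whether a coding gene lies next past the 3 prime end was looked up in the RefSeq gene order of assembly UCB_Xtro_10.0, which gives no strand. The antisense chains start on this side, but their start positions were not used. For each sense gene the next annotated gene of the catalogue lying wholly past its 3 prime end was found on the scaffold. The RefSeq coding genes between both were counted. Annotated genes that overlapped the sense gene were passed over and could count as lying between, as cdkn2d did at atg4d. This comparison was set up after exon numbers had been seen. Of 440 sense genes matched by name, 311 places on a scaffold could be used, and 204 (65.6%, 60.2% to 70.7%) had at least 1 such gene, against 59.5% (58.3% to 60.7%) of 6333 places over all annotated genes. The share differed with exon number. Where the largest member had 10 or more exons it was 43 of 45 (95.6%, 85.2% to 98.8%), with 5 to 9 exons 34 of 39 (87.2%), with 3 to 4 exons 28 of 45 (62.2%), and with 2 exons 99 of 182 (54.4%, 47.1% to 61.5%). On the 5 prime side of the same genes with 10 or more exons it was 29 of 46 (63.0%, 48.6% to 75.5%). In each of the 43 cases at least 1 of the genes in between had no model under its name in the catalogue. This is largely by construction, since the interval ends at the next gene with a model that lies wholly past the sense gene. It also held for 95 of the 99 cases with 2 exons and for 3467 of 3770 cases over all annotated genes. The differences by exon number, and those by kind of locus below, are bound to the membership rule as well. A transcript that shares junctions with an annotated gene on its strand is coded to that gene and not as antisense. Long chains can thus be members more readily where the gene they follow has no model. How much of the differences this makes was not tested.

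**Figure D4:**
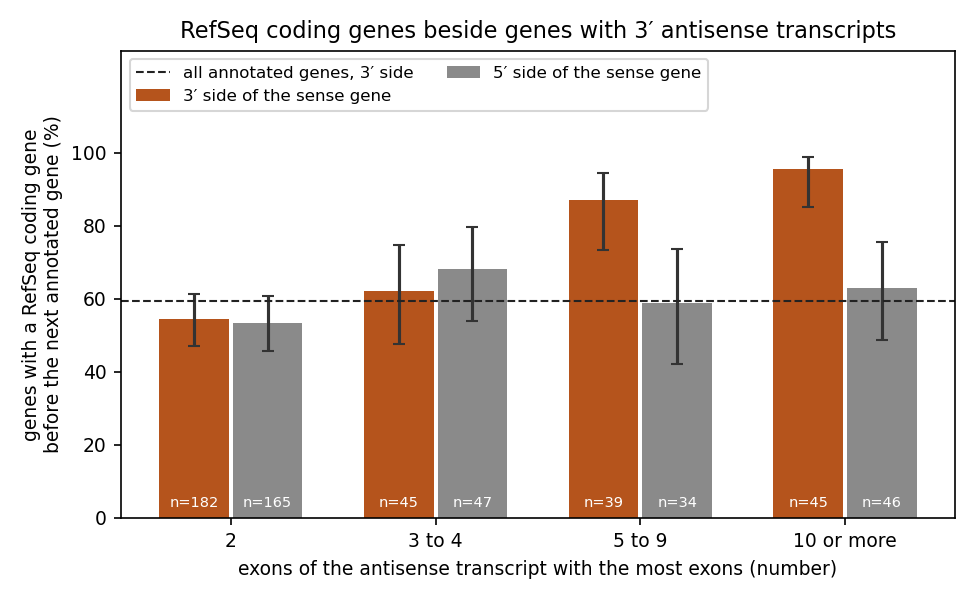
Percent of sense genes with at least 1 RefSeq coding gene before the next annotated gene, on their 3 prime side (orange) and 5 prime side (grey), by the exon number of their largest member. Bars carry Wilson 95% intervals and the number of genes placed, and on the 3 prime side the percent is 54.4% with 2 exons and 95.6% with 10 or more.

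By kind of locus, the share on the 3 prime side was 56 of 63 (88.9%, 78.8% to 94.5%) for loci with unannotated transcripts and 142 of 239 (59.4%, 53.1% to 65.4%) for loci with antisense transcripts alone. Genes with an antisense transcript across their 5 prime end had the higher share on the other side, 76.0% (71.1% to 80.4%) on the 5 prime and 57.1% (51.7% to 62.4%) on the 3 prime side. Some of the genes named above, among them ndnl2 and add1, had no next annotated gene that could be placed. For others, RefSeq lists snrnp200, a helicase gene of the spliceosome, first on the 3 prime side of ciao1, and itgb4, an integrin gene, beside galk1. It lists dlec1 beside acaa1, cntrl, which encodes the centrosomal protein centriolin, beside rab14, sfi1 beside pisd, pds5a, a cohesin regulator gene, beside ube2k, mtrex beside ppap2a and chaf1a, a chromatin assembly gene, beside ubxn6. These are neighbours by gene order in another assembly. Whether the antisense chains are their transcripts was not tested.

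The longest reach was at ippk, the gene of the kinase that makes inositol hexakisphosphate, where 1 member of 9 exons began 134555 bases past the gene and shared 3601 bases with it. At cnbp, which encodes a zinc-knuckle nucleic acid binding protein, 1 member of 3 exons reached 117579 bases. LOC100124969 and LOC100125030, outside the rule for named genes and named after their values were seen, followed with 103880 and 90053 bases. Next came reaches of 76682, 73413, 72938 and 67913 bases at mcmbp, slc25a26, mob2.1 and ppap2a, with members of up to 23, 20, 20 and 28 exons. RefSeq lists inpp5f between mcmbp and the next annotated gene, and brsk2 between mob2.1 and the next one. At the muscle regulator gene myog, on the plus strand of scaffold GL172805 from 1330791 to 1337943, a member of 2 exons began 65624 bases away and overlapped by 2772 bases. RefSeq lists no coding gene between myog and the next annotated gene, tmem183a.

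Among genes with a full symbol, leaving out LOC and MGC symbols, the longest overlaps were of another form. These members had few exons spread over a long sense span. Whether a single gene fills such a span was not checked. At c19orf56, named wdr83os in RefSeq, a member of 3 exons overlapped by 116688 bases of a sense span of 130126 bases and shared no exonic base with it. At znf184, a zinc finger gene, 5 members overlapped by 24359 to 73721 bases. Single members with 3 exons overlapped by 72619 bases at rrp12, a gene of ribosome maturation, and by 50595 bases at ephx2, an epoxide hydrolase gene. At sfrp1, the gene of a secreted Wnt antagonist, a member of 2 exons reached 28 bases past the gene and overlapped by 37375. At zfp160, ndufa2 and c20orf20 the longest overlaps were 37107, 32709 and 30173 bases, and the member at ndufa2, a gene of respiratory complex I, shared no exonic base either.

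Members of 2 exons were the most common form when each gene counted once, at 259 of 464 sense genes. Of the 359 sense genes with loci of antisense transcripts alone 242 had a largest member of 2 exons, and 74 had one that began at most 50 bases past the gene. Over all transcripts 123 members at 88 genes reached at most 50 bases. These lie at the limit of the rule. The 8 members just inside it reached 1 base past the gene, at aldoa (2 members), dpm3, erc1, ppp4c, slc25a44, spr and ubac1. Just outside it, 325 antisense transcripts at 117 genes began at exactly the last base of the sense gene and counted as inside, 96 of them at LOC100127682. At the other limit 29 members at 10 genes stopped at exactly the first base of the sense gene. Of these, 5 lay at cldn7, which begins at base 1 of its scaffold, so that no transcript there could pass its 5 prime end. The nearest transcripts across both ends passed the first base by 8 bases at olig3 and 25 bases at rhob.

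Over all transcripts, members had a median of 5 exons (quartiles 2 and 10) and 3144 bases, transcripts across the 5 prime end 6 exons (3 and 13) and 2146.5 bases, and transcripts inside genes 2 exons (2 and 3) and 1665 bases. With 1 transcript per gene the medians were 2, 3 and 2 exons. The share with 10 or more exons was 25.9% (23.6% to 28.3%) of members, 36.1% (33.3% to 39.0%) across the 5 prime end and 0.397% (0.222% to 0.710%) inside genes. The value headed FPKM, which is a relative weight of at most 1 and no abundance, was exactly 1 for 64.4% of members, 66.3% of transcripts across the 5 prime end and 68.2% of those inside genes. The deposited coverage, whose scale is not stated, had medians of 1.37, 1.29 and 1.31.

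**Figure D5:**
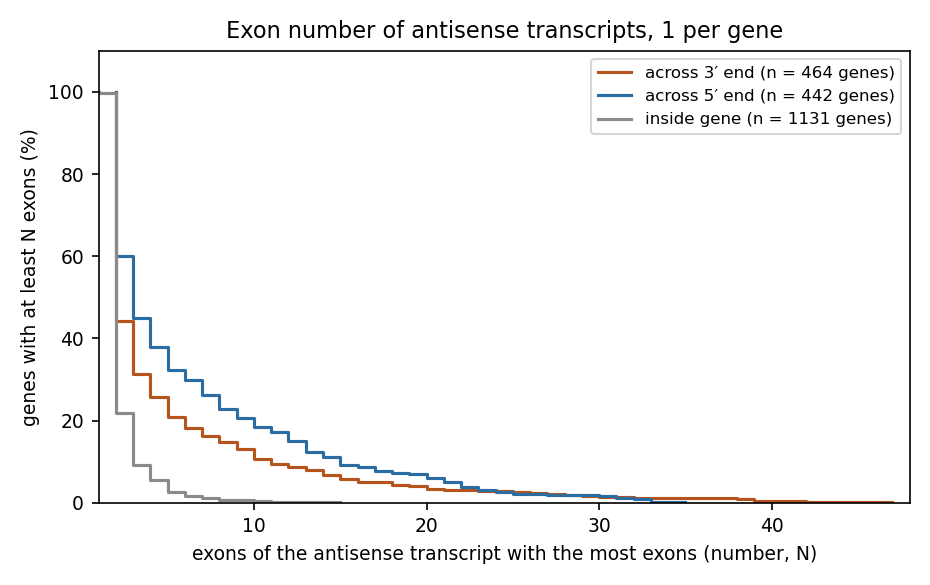
Percent of genes whose antisense transcript with the most exons has at least N exons, for transcripts across the 3 prime end (464 genes), across the 5 prime end (442) and inside the gene (1131). The medians are 2 exons across the 3 prime end, 3 across the 5 prime end and 2 inside the gene, and the line for the 3 prime end extends to 47 exons.

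The sense genes had a median of 9 assembled multi-exon isoforms (quartiles 4 and 19), against 5 (2 and 11) over all annotated genes. Their median largest exon number was 10 against 9, and their median span 19238.5 against 21577 bases. Genes with an antisense transcript across the 5 prime end had a median of 5 isoforms.

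Gene families were counted by the start of their symbols. Symbols beginning with srsf, hnrnp, snrp or sf3, which name splicing proteins, had members at 9 of 36 genes (25.0%), against 5.55% of all annotated genes. They were hnrnpa1, hnrnpl, hnrnpu, sf3b4, snrpd3, srsf1, srsf3, srsf5 and srsf9, with 1 to 3 members each. The largest reach among them was 4313 bases, at hnrnpu, and the most exons were 8, at srsf9. This was the highest share among the lists, and it carries no interval. The median isoform number was 18 for these 9 and 14 for the other genes of the family. Over all 36 it was 14.5, against 5 over all annotated genes, so the family was assembled into more isoforms than most genes. Whether this bears on the share was not tested. At srsf1 and srsf5, which encode SR splicing factors, the member overlapped by 5570 and 5516 bases.

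Other families stood nearer to the share over all genes. Zinc finger symbols in znf had members at 8 of 59 genes (13.6%), translation initiation symbols in eif at 5 of 41 (12.2%), which were eif3a, eif3f, eif4e3, eif4h and eif2c2, the last being ago2 in RefSeq, an Argonaute gene of small RNA silencing and no initiation factor, and ribosomal protein symbols at 7 of 77 (9.09%). Helicase symbols had 3 of 29 (ddx18, ddx21 and ddx39a) and oxidative phosphorylation symbols 5 of 69 (atp5l, cox10, ndufa2, ndufb4 and sdhb). Ubiquitin-conjugating symbols had 2 of 26 (ube2k and ube2l3) and solute carriers 9 of 146. Transmembrane proteins in tmem had 6 of 102 (tmem126a, tmem138, tmem163, tmem39a, tmem41b and tmem65). Proteasome symbols had 2 of 39, psma3 and psme1, and psme1 was overlapped by 325 bases from the locus of psme2, its partner in the proteasome activator. Mitochondrial ribosomal symbols had 2 of 49 (mrpl12 and mrpl45), small GTPase symbols 3 of 88 (rab14, rab7a and rhoa.2), coiled-coil symbols in ccdc 2 of 58 (ccdc12 and ccdc167) and cyclin and kinase symbols 2 of 54 (ccni and cdk8).

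Lists of developmental regulators were short. Of 39 Wnt and Fgf symbols fgf2 and wnt7b had a member (5.13%, against 5.55% of all annotated genes). That of wnt7b, a signalling ligand gene, belonged to the locus of atxn10, which is its neighbour in RefSeq, and overlapped by 1282 bases. Of 48 forkhead and Sox symbols foxn3, sox11 and sox3 had one (6.25%), of 8 Hox symbols hoxa3 (12.5%), and of 10 Pax and Gata symbols none. Of 24 keratin and collagen symbols col18a1, col1a2 and krt5.1 had one (12.5%), but RefSeq names krt5.1 as srsf5a, an SR splicing factor gene, so that it is counted under its symbol and not under splicing. Of 30 symbols of the muscle set myl1 and myl12b had one (6.67%), beside myog, which the symbol rule of that set left out.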

How the data were processed

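Polyadenylated RNA of 40 whole-embryo libraries was sequenced, with Bowtie, TopHat and Cufflinks listed in the submitters' processing notes. No version, build or annotation source is given in the sources used here. The deposited tables pool the whole series. The authors deposited gene models and a table with a score headed FPKM, at most 1 in every row, and a coverage signal of unstated scale. Models were read in Python 3.11.15 with pandas 2.3.3. Members and gene lists were chosen with earlier results of these data known. Overlap and reach had a minimum of 1 base. Positions are printed counted from 1.

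Where a share carries an interval, it is a Wilson 95% interval. The placement was checked on simulated transcripts. Named genes were the 8 with a full symbol leading in members, overlap, reach, exons or overlap of a named pair, those at the limits of the rule, and list genes where a list had 6 or fewer. A gene that this rule names is not reported here. MGC69473, the genes of the splicing list and the RefSeq neighbours were named after their values were seen. RefSeq neighbours, at most 15 genes apart, used unique symbols or synonyms, which matched 7980 of 8315 gene symbols. No sequence is shown, and differences between stages were not analysed here.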

Additional observations from a re-analysis of the deposited data

How the results depend on the processing

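The number of members stayed within 1.5 times of 1330 with spans from annotated and new chains alone, a minimum overlap or reach of 100 bases, exon overlap required, loci joining several genes left out, or MGC69473 left out. Spans from annotated chains alone, with genes lacking one dropped, gave 313 members, 105 genes and 39.8% of antisense transcripts, and by construction many genes are then missing. A reach of at least 100 bases gave 21.4%. With a relative weight of exactly 1 alone there were 857 members at 302 genes, the share with an annotated neighbour was 15.3%, the median overlap 2589 and the median reach 6305 bases. All 73 members at MGC69473 had this weight, and without them 58 of 784 such members had an annotated neighbour. With 1 transcript per gene there were 464 members, a neighbour share of 3.23%, and medians of 2597.5 bases of overlap, 1121.5 bases of reach and 2 exons. The neighbour share was 5.49% without MGC69473, 13.5% when any annotated transcript that overlapped the member on its strand or started near it counted, and 10.3% when the neighbour had to start past the 3 prime end. The leaving out of MGC69473 and the last of these were chosen after seeing the data. A version by the strand of the next RefSeq gene was not run, since the table used gives no strand. No paired analysis was possible because no value belongs to a library. Read depth is unknown, so it is unknown which genes lacked the depth to show an antisense transcript.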

Other observations

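The first exon was exactly 8 bases long in 115 members (8.65%, Wilson 95% interval 7.25% to 10.3%), in 4 transcripts across the 5 prime end (0.366%) and in 84 inside genes (3.03%). The last exon had this length in 20 of 1330 members (Wilson 95% interval 0.976% to 2.31%), in 51 transcripts across the 5 prime end (4.67%, 3.57% to 6.09%) and in 148 inside genes (5.34%). The end that lies outside the sense gene is the first exon in members and the last exon in transcripts across the 5 prime end. Of the 115 members 67 lay at MGC69473, and without that gene the share was 3.82% (2.89% to 5.03%). Over the assembled multi-exon transcripts it was 2.82% of those outside annotated genes and 3.13% of those with a new junction chain.

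A few members had introns that nearly mirrored those of the sense gene. An intron within 10 bases of a sense intron at both ends was present in 54 members at 16 genes (4.06%, 3.13% to 5.26%), in 1.65% of transcripts across the 5 prime end and in 5.74% of those inside genes. In 2 members the intron was identical.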
